A study of Sus scrofa with 4 samples.

Results

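Peaks of histone H4 lysine 12 lactylation (H4K12la) that were 700 bp or wider were examined in the liver of a late-gestation sow group with high bile acids. They were chosen by their called width alone, on chromosomes 1 to 18, and numbered 750 of the 28222 peaks of that list. The series holds 4 libraries from female pig liver labelled as hepatocytes, an immunoprecipitated library and an input library for a low (normal) and for a high bile acid group. The series title ties the comparison to intrahepatic cholestasis of pregnancy, a disorder with raised bile acids, and to signalling by c-JUN. There was 1 library of each kind per group, so differences between groups could not be checked on replicates, and the age of the animals and their number per library are not given in the sources used here. The high list is the list of peaks called in the high bile acid library, and the low list is the one from the low bile acid library. Coordinates are Sscrofa11.1.

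Lactylation is an acyl mark that forms on histone lysines from lactate-derived lactyl groups. Like acetylation of the same tail, it is generally found on open chromatin at promoters and enhancers. The called width of a peak is the length of the region that the caller reported as enriched over its background, which may include short gaps. In the liver, bile acids are made from cholesterol in hepatocytes, secreted into bile, and sensed by nuclear receptors that pair with RXR.

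Widths of the 750 peaks ranged from 700 to 1504 bp, with a median of 782.5 bp. Of these, 147 reached 900 bp and 76 reached 1000 bp. The narrow peaks used for comparison were the 18251 peaks under 400 bp, with a median of 308 bp, and another 9221 peaks fell between the classes. Wide peaks made up 2.66% of the high list (95% exact interval 2.47 to 2.85%) and 5.58% of the sequence it covered. In the low list, 53 of 5730 peaks were as wide, or 0.925% (0.694 to 1.21%), with widths from 700 to 1225 bp. The share was thus 2.87 times as large in the high list. The high list is 4.93 times as long as the low list, and with 1 library per group a difference between libraries cannot be told apart from one between bile acid groups. All intervals here cover counting error only.

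At the threshold, 5 peaks measured exactly 700 bp, among them 1 inside MCM4, 1 inside DNALI1 and 1 at the end of the microRNA gene MIRLET7I, with folds of 3.16, 2.88 and 3.39. Just outside, 4 peaks were 1 bp narrower. They included a peak inside LYN, which encodes a SRC-family kinase (fold 2.63), one inside KLB, which encodes the co-receptor for the bile acid hormone FGF19 (3.36), and one 16038 bp from FAH, the last enzyme of tyrosine breakdown (3.68).

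Fold here is the enrichment that the authors' caller gave for a peak's summit relative to its background, and q is their adjusted p-value for that peak against its own input. The fold of the wide peaks ran from 1.55 to 4.83 with a median of 3.12, against a median of 2.90 in narrow peaks. The number of fragments at the summit, recovered from fold and p, had a median of 10 in wide peaks and 9 in narrow peaks. In wide peaks 46 of 750 had q under 0.05 (6.13%; 4.52 to 8.10%), and in narrow peaks 281 of 18251 (1.54%). Over the whole list the share was 2.13%. Strength and width come from the same pileup, so these values describe the members and support nothing about them.

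**Figure D1:**
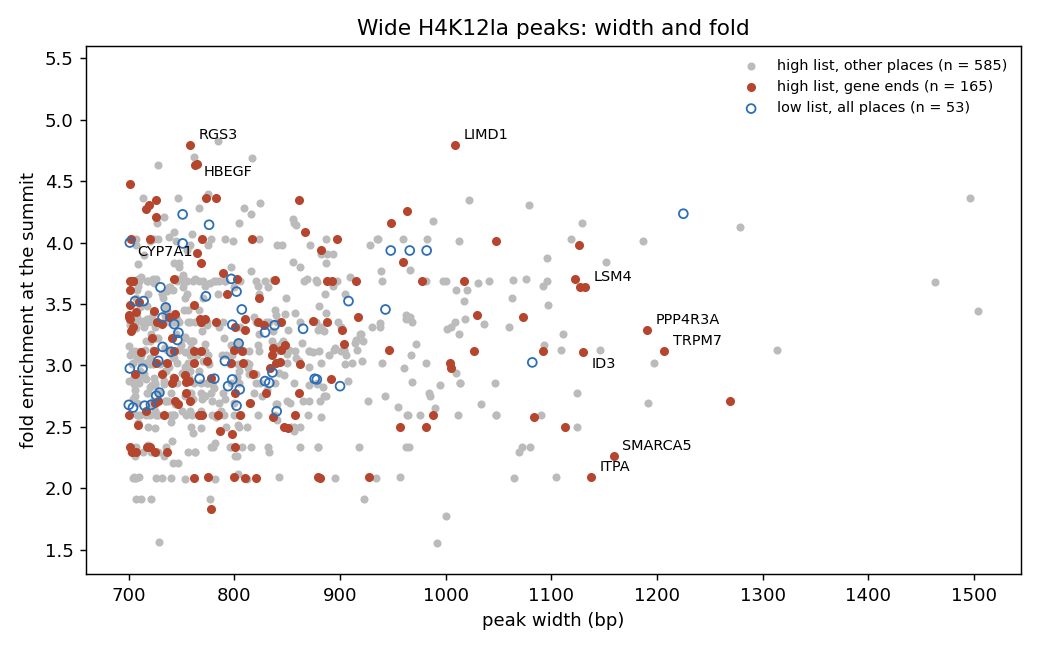
Width in bp (x) against the authors' fold at the summit (y) for every peak of 700 bp up. Red points are the 165 high-list peaks at gene ends, grey points the other 585 high-list peaks and blue rings the 53 low-list peaks; folds lie between 1.55 and 4.83, most peaks are narrower than 900 bp, and LIMD1 combines a width of 1009 bp with a fold of 4.79.

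The first question was where wide peaks lay. A summit was counted at a gene end when it was within 1 kb of either end of any of 26902 annotated genes. The gene table used here gives no strand, so start and stop sides were not told apart, nor were exons, introns and untranslated regions. Wide peaks were at gene ends in 165 of 750 cases, or 22.0% (19.1 to 25.1%). Narrow peaks were there in 1841 of 18251 cases, or 10.1% (9.65 to 10.5%). The difference was 11.9 percentage points (Newcombe 95% interval 9.06 to 15.0). Gene interiors held 51.5% of wide and 56.6% of narrow summits, a difference of -5.14 points (-8.79 to -1.51). Intergenic sequence held 26.5% and 33.3%, a difference of -6.77 points (-9.88 to -3.43).

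The gene-end share was higher in wider classes, though not at each step. It was 9.65% under 350 bp, 12.2% from 400 to under 500 bp, 15.1% from 500 to under 600 bp, 14.8% from 600 to under 700 bp, 20.7% from 700 to under 800 bp, 24% from 800 to under 900 bp and 27.6% (18 to 39.1%) at 1000 bp and more. The order was broken from 600 to under 700 bp, and again by the 71 peaks from 900 to under 1000 bp, with 18.3% (10.1 to 29.3%). Wide peaks exceeded narrow peaks on 16 of 18 chromosomes. The exceptions were chromosome 10, with 1 of 21 wide peaks at a gene end, and chromosome 15, with 2 of 29.

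Since wide peaks also had lower p, narrow peaks were reweighted to the strength of the wide ones. Weighted to the same classes of p, narrow peaks had a gene-end share of 10.8%, and weighted to the same number of summit fragments in 11.5%. The wide share stayed at 22.0% and 22.1%. Weighted to the same chromosomes, the narrow share was 10.4%. The excess of wide peaks at gene ends was therefore present at matched p, matched fragment number and matched chromosome.

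**Figure D2:**
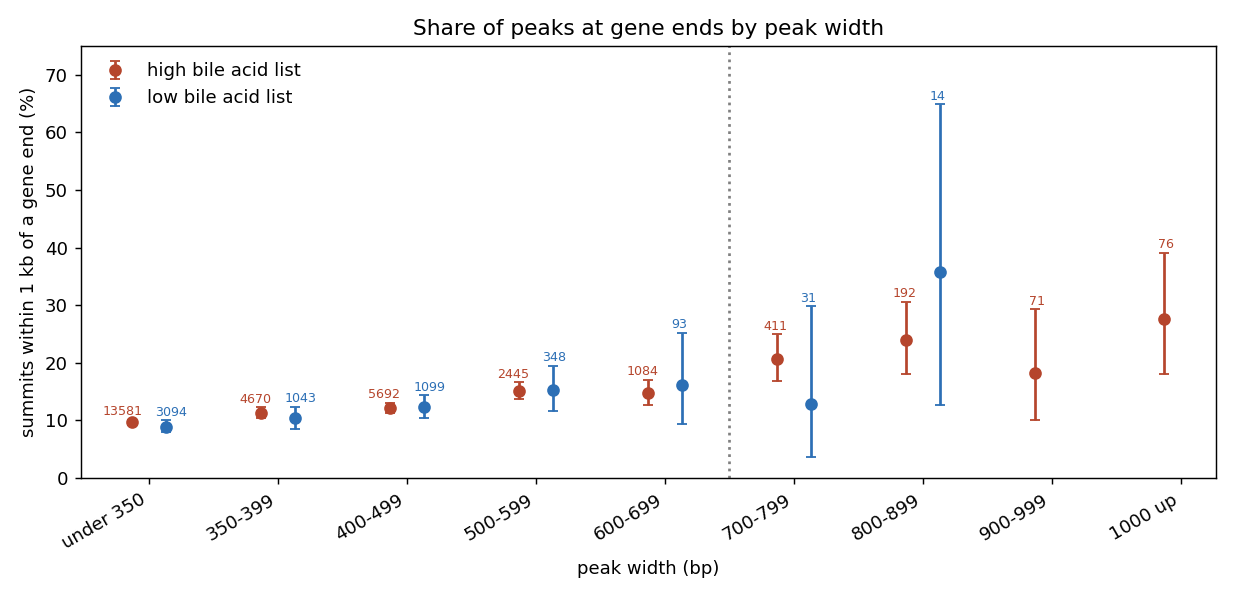
Share of peak summits within 1 kb of a gene end (y, percent) by peak width class in bp (x), with exact 95% intervals and the number of peaks above each; red is the high list, blue the low list, and the dotted line marks 700 bp. The high-list share is 9.65% in the narrowest class and 27.6% in the widest, with lower values than the class before at 600 and at 900 bp; the 8 low-list peaks of 900 bp up are not drawn.

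The nearness to genes reached past the 1 kb window. The median distance from summit to gene end was 6332 bp for wide peaks, 12400 bp for the class between and 16310 bp for narrow peaks. Within 5 kb of a gene end lay 46.0% of wide and 28.1% of narrow summits, a difference of 17.9 points (14.3 to 21.6). Even among peaks inside genes and away from their ends, 32.6% of wide peaks (126 of 386) and 21.0% of narrow peaks were within 5 kb of an end. Distances over 50 kb were found for 12.9% of wide and 25.4% of narrow peaks. The most remote wide peak, of 812 bp on chromosome 11 at 40393726 to 40394537, was 938662 bp from the nearest gene end.

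**Figure D3:**
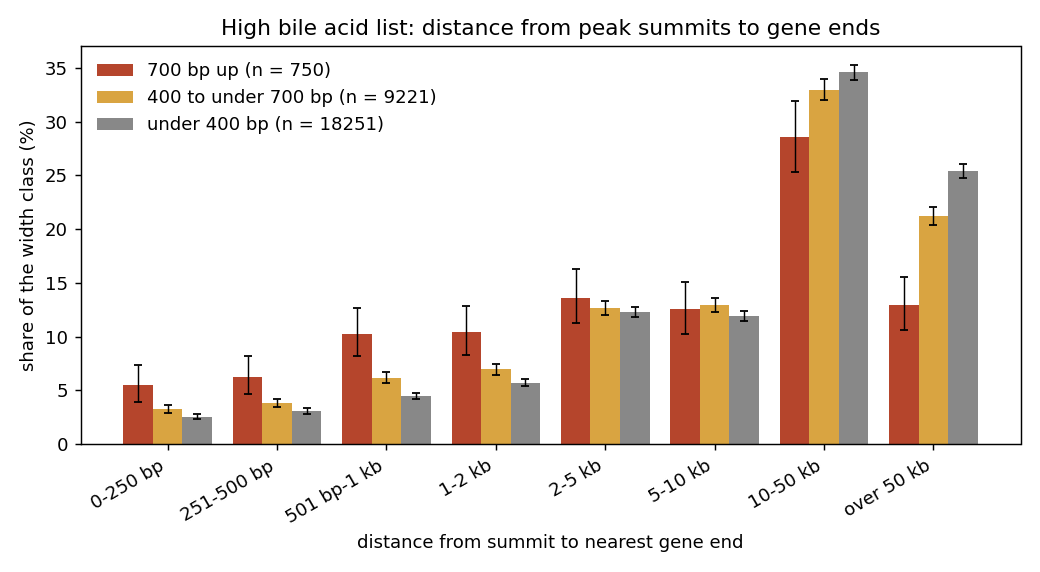
Share of each width class of the high list (y, percent, with exact 95% intervals) by distance from summit to nearest gene end (x). Wide peaks (red) exceed narrow peaks (grey) in every class up to 2 kb and fall below them beyond 10 kb, with 12.9% against 25.4% over 50 kb.

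Wide peaks at gene ends sat mostly at coding genes. A named protein-coding gene was within reach of 150 of the 165 (90.9%), against 79.4% of narrow gene-end peaks, a difference of 11.5 points (5.84 to 15.5). Ends of long noncoding RNA genes were reached by 4.85% of wide and 15.0% of narrow gene-end peaks, a difference of -10.1 points (-13.1 to -5.45). Ends of 2 or more named coding genes were reached by 24 wide peaks (14.5%) and by 9.34% of narrow peaks, a difference of 5.20 points (0.417 to 11.5). Where a wide peak covered the end of a single named gene, it reached further into the gene than out of it in 26 of 34 cases, with a median of 601.5 bp inside and 257.5 bp outside. Narrow peaks in the same position had medians of 175 and 156 bp, with 79 of 155 reaching further inside.

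In all, 174 named coding genes of 15689 (1.11%) had a wide gene-end peak. Any high-list gene-end peak was found at 17.1% and a narrow one at 9.97% of all 15689. None of the 174 had more than 1 wide peak at its ends. Their median length was 27.5 kb, near the 25.6 kb of all named coding genes, and 21.5 kb in genes with a narrow gene-end peak. Among the 174, 11 also had a low-list gene-end peak of any width, which 3.26% of all named coding genes had.

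The widest peaks at the ends of named coding genes belonged to genes of varied function. TRPM7, an ion channel with a kinase domain, had the widest of these at 1207 bp (chromosome 1, 121145757 to 121146963), with a fold of 3.12 and q of 0.232. The peak covered the lower-coordinate end of the gene and had 11 summit fragments (95% Poisson interval 5.49 to 19.7). PPP4R3A, a regulatory subunit of protein phosphatase 4, followed with 1191 bp and a fold of 3.28, its summit 16 bp outside the gene. SMARCA5, the ATPase of ISWI chromatin remodelling complexes, had 1159 bp and a fold of 2.26. A wider gene-end peak, 1269 bp with a fold of 2.71, lay at genes without a symbol on chromosome 6 (58188790 to 58190058). None of these peaks passed a q of 0.05, with q of 0.232 for PPP4R3A and 0.50 for SMARCA5.

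ITPA, which clears inosine triphosphate, had a 1138 bp peak of fold 2.09. LSM4, a component of the spliceosomal U6 particle, had 1132 bp and a fold of 3.64 (q 0.0735). The chemokine receptor-like gene CCRL2 had 1127 bp and a fold of 3.64. The zinc finger genes ZBTB1 and ZBTB25, whose ends lie next to each other, shared 1 peak of 1126 bp and fold 3.98 (chromosome 7, 88575362 to 88576487; q 0.0548) with its summit 1 bp from the ZBTB1 end. The lysosomal mannosidase gene MAN2B2 had 1122 bp (fold 3.70), ENO3, which encodes the muscle form of the glycolytic enzyme enolase, 1113 bp (2.50), and FAM187B 1092 bp (3.12). The FAM187B peak also reached LSR, the lipolysis-stimulated lipoprotein receptor gene, and its summit was 16 bp from a gene end. The MAN2B2 and ENO3 summits were 577 and 965 bp outside those genes.

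The gene ID3 encodes a protein that binds basic helix-loop-helix factors and keeps them off DNA and is only 1.63 kb long (chromosome 6, 81422541 to 81424169). Its wide peak of 1130 bp lay wholly inside and covered 69.4% of it. The fold was 3.11 (q 0.242) on 9 fragments (4.12 to 17.1) over 2.21 expected. The low list had no peak within 10 kb of ID3. Absence from the low list was common, since 3.26% of all named coding genes had any low-list gene-end peak. The share of all genes without one within 10 kb was not counted.

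The highest folds among wide peaks at the ends of named coding genes were at LIMD1, a LIM-domain scaffold gene, and RGS3, a regulator of G-protein signalling. Both had a fold of 4.79 and q of 0.00484 on 14 fragments (7.65 to 23.5), with widths of 1009 bp (chromosome 13, 28730261 to 28731269) and 758 bp (chromosome 1, 254078808 to 254079565). ARCN1, the delta subunit of the COPI vesicle coat, had 4.64 with 765 bp. HBEGF, a ligand of the epidermal growth factor receptor, had 4.63 with 763 bp (q 0.00810; chromosome 2, 142114333 to 142115095). USP25, a deubiquitinase, had 4.47 and protein kinase D2 (PRKD2) 4.36. POLD4, a subunit of DNA polymerase delta, had 4.35 with a summit 541 bp outside the gene. All of these had q under 0.05.

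The 5 widest peaks of any place were not at gene ends. The widest of all, 1504 bp, lay inside SH2B3, an adaptor that dampens cytokine signalling (chromosome 14, 32644004 to 32645507), with a fold of 3.44 and q of 0.0743. The next, 1496 bp, was inside AOC2, an amine oxidase gene, with a fold of 4.36 and its summit 1505 bp from a gene end. A peak of 1463 bp lay outside genes with GUCA2B, the uroguanylin gene, as the nearest named gene at 67924 bp. One of 1314 bp lay inside VASN, and one of 1279 bp lay near MUC6, a gastric mucin gene, with a fold of 4.13.

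Several wide gene-end peaks were at genes of liver metabolism or signalling, which were picked here after their values were seen. ACAA1, the peroxisomal thiolase of fatty acid oxidation, shared an 874 bp peak of fold 3.37 with its neighbour OXSR1. ACAA1 and OXSR1 each had 1 low-list gene-end peak as well. HAO2, a peroxisomal hydroxyacid oxidase, had 839 bp (fold 3.02), UROC1 of histidine breakdown 837 bp (2.58), CPOX of haem synthesis 836 bp (3.09) and DIO1, the deiodinase that activates thyroid hormone, 800 bp (2.09). The DIO1 peak also lay inside HSPB11 and cannot be assigned to either gene. The Notch ligand gene JAG1 had 882 bp and a fold of 3.94, and DVL2 and LRP6 of WNT signalling had 1017 bp (3.69) and 834 bp (2.98). None of these wide peaks had q under 0.05.

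Genes of fixed pathway and marker lists were then counted. These were 23 lists with 497 annotated genes, and 5 of the 497 (1.01%) had a wide gene-end peak, close to the 1.11% of all named coding genes. They were ID3 and HEYL, a Notch-responsive repressor with 801 bp and a fold of 2.78, both of the 30 ID and basic helix-loop-helix genes. CYP7A1 was 1 of 11 bile acid synthesis genes, KDM2A, a demethylase of histone H3 lysine 36, 1 of 24 histone methylation enzymes (897 bp, fold 4.03), and POLR2F, a subunit shared by the nuclear RNA polymerases, 1 of 37 transcription machinery genes (707 bp, fold 2.29). The POLR2F peak also lay at an end of C5H22orf23. KDM2A also had 1 low-list gene-end peak.

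Each list is a selection of genes, so a count of 0 covers only its members. ENO3 of glycolysis (1113 bp) and MAP3K10, a kinase upstream of JNK (716 bp), had wide gene-end peaks but are not listed. The other 19 lists had no member with a wide gene-end peak. They were hepatocyte transcription factors (0 of 30), secreted plasma proteins (0 of 29), immediate early genes (0 of 27), homeobox genes (0 of 40), bile acid transport and signalling (0 of 26), JNK and MAP kinases (0 of 30), glycolysis and lactate (0 of 30), lactylation and acyl enzymes (0 of 21), lipid and cholesterol (0 of 29), TGF-beta and BMP (0 of 28), cytosolic ribosomal proteins (0 of 47) and ubiquitin and proteasome (0 of 28). The remaining 7 lists held markers of hepatocytes, cholangiocytes, Kupffer and myeloid cells, stellate cells, endothelium, lymphocytes and erythroid cells, with 0 of 44 in all. Of the 10 hepatocyte markers, 1 had a high-list gene-end peak of any width, which 17.1% of all named coding genes had. Such a peak was found at 1 of 5 cholangiocyte, 1 of 6 endothelial and 2 of 6 lymphocyte markers. Kupffer and myeloid, stellate and erythroid markers had 0. Peak calls are no measure of expression, so the labelled cell type was not checked by them.

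CYP7A1, the rate-limiting enzyme of bile acid synthesis, was just inside the width threshold. Its peak of 702 bp (chromosome 4, 74343628 to 74344329) lay inside the gene with its summit 955 bp from the lower-coordinate end, a fold of 4.03 and q of 0.0735. The annotated CYP7A1 overlaps SDCBP there, and the peak cannot be assigned to either gene. It had 11 summit fragments (5.49 to 19.7), and the low list had no peak within 10 kb. Such an absence was common, since 3.26% of all named coding genes had any low-list gene-end peak. With a gene-end window of 0.5 kb the CYP7A1 peak would not count. ACOX2, the peroxisomal oxidase that shortens the bile acid side chain, had a much wider peak of 1192 bp, but 16033 bp from any gene end and with a fold of 2.70.

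Other listed genes had a wide peak summit inside the gene but no wide peak at its ends. The summit of a wide peak lay anywhere in 453 named coding genes (2.89%), gene-end peaks with a summit inside the gene included. Among the 497 listed genes 12 had such a summit, a share no larger than that of all named coding genes. Listed genes with such a peak and no wide gene-end peak included the hepatocyte factor RXRA, the immediate early genes FOSL2 (726 bp, 2.29) and KLF6 (753 bp, 3.23), the glycolytic regulators HK1 (918 bp, 2.34) and PFKFB3 (718 bp, 3.38), the histone methyltransferase gene SETD1A (740 bp, 2.54) and the ligand genes BMP6 (721 bp, 3.38) and TGFB3 (740 bp, 2.08). The FOSL2 and KLF6 summits were 1534 and 1477 bp from a gene end, just outside the window.

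Wide peaks also lay closer to other called peaks. The nearest other high-list peak was a median of 13655 bp away for wide and 19311 bp away for narrow peaks. Another peak lay within 5 kb for 224 of 750 wide peaks (29.9%; 26.6 to 33.3%) and for 20.9% of narrow peaks, a difference of 9.0 points (5.77 to 12.4). At gene ends the shares were 28.5% and 30.1% (difference -1.66 points; -8.35 to 5.94), and elsewhere 30.3% and 19.8% (10.4 points; 6.79 to 14.3). The excess of neighbours was thus seen away from gene ends and was not detectable at them. Counted among peaks with q under 0.05 alone, none of the 46 wide peaks and 0.712% of narrow peaks had such a neighbour.

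There were 13 pairs of neighbouring wide peaks at most 10 kb apart. The closest pair lay inside RXRA, which encodes the retinoid X receptor alpha, the partner of the bile acid receptor FXR and of PXR and LXR (chromosome 1, 273698842 to 273797622; chosen here after its values were seen). The peaks measured 768 and 726 bp, with folds of 2.63 and 3.23 and a gap of 248 bp. RXRA held 17 high-list peaks in and within 10 kb of its 98.8 kb, the strongest being a 483 bp peak of fold 5.03 (q 0.00241) near its lower-coordinate end. The low list held 6 peaks there, and 2 of these were wide, with 943 and 746 bp and folds of 3.46 and 3.21 (q 1 for both). The wide peaks of the lists did not overlap. The 943 bp low-list peak overlapped a high-list peak of 442 bp and fold 3.36.

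**Figure D4:**
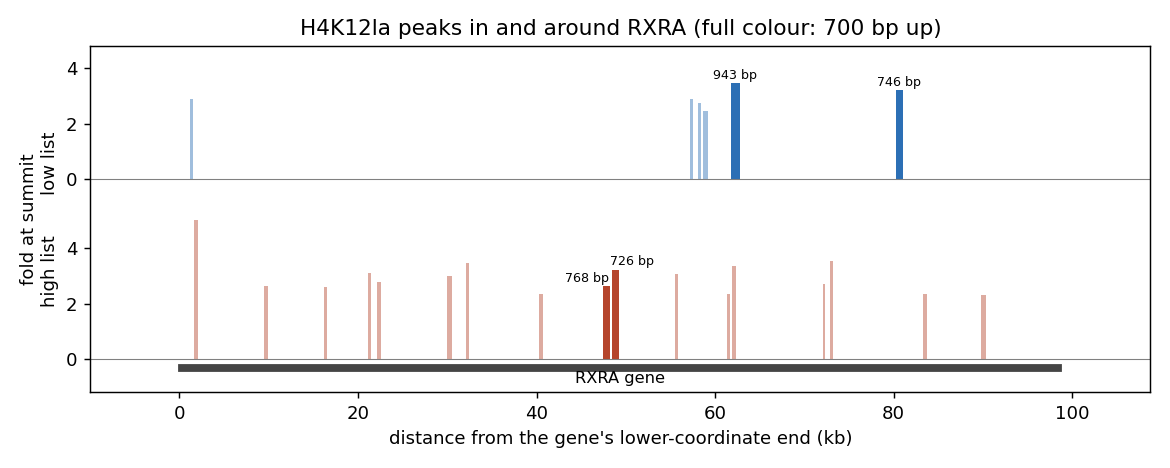
Peaks in RXRA and 10 kb on either side, by distance in kb from the lower-coordinate gene end (x), with fold at the summit as bar height (y) for the low list (blue, top) and the high list (red, bottom); bars are as wide as the peaks, and full colour marks those of 700 bp up. Both lists have wide peaks inside the gene, at different places: 768 and 726 bp in the high list, 943 and 746 bp in the low list.

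ZFPM1, a GATA cofactor gene, was the only named coding gene with 3 wide peaks within 10 kb, of 800, 879 and 861 bp. Of all 33 genes with 2 or more, the rest had 2, and a peak could count for more than 1 gene. Among them was AGXT, the liver enzyme that detoxifies glyoxylate (806 and 921 bp, folds 2.60 and 3.03). The sphingosine kinase SPHK1, the sterol exporter ABCG1, the lipoprotein receptor LSR and the lactate exporter SLC16A3 were also counted. Both summits lay in the gene for SPHK1 and ABCG1, but 1 for AGXT and LSR and 0 for SLC16A3. The 843 bp peak near SLC16A3 was the one at the end of CSNK1D, and the 905 bp peak near LSR lay inside USF2. In ABCG1 the peaks had folds of 4.63 (728 bp, q 0.00810) and 2.50 (856 bp).

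Chromosomes differed in their share of wide peaks. Chromosome 12 had the highest, 57 of 1425 peaks (4.0%; 3.04 to 5.15%), and chromosome 1 the lowest, 52 of 2764 (1.88%; 1.41 to 2.46%). They were picked as the extremes of 18, so their intervals are no test of a difference. The others lay between 1.98% (chromosome 16) and 3.48% (chromosome 3). Across the 18 chromosomes the share followed the number of annotated genes per Mb with a Spearman correlation of 0.67, given as a description, since all points come from 1 library.

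**Figure D5:**
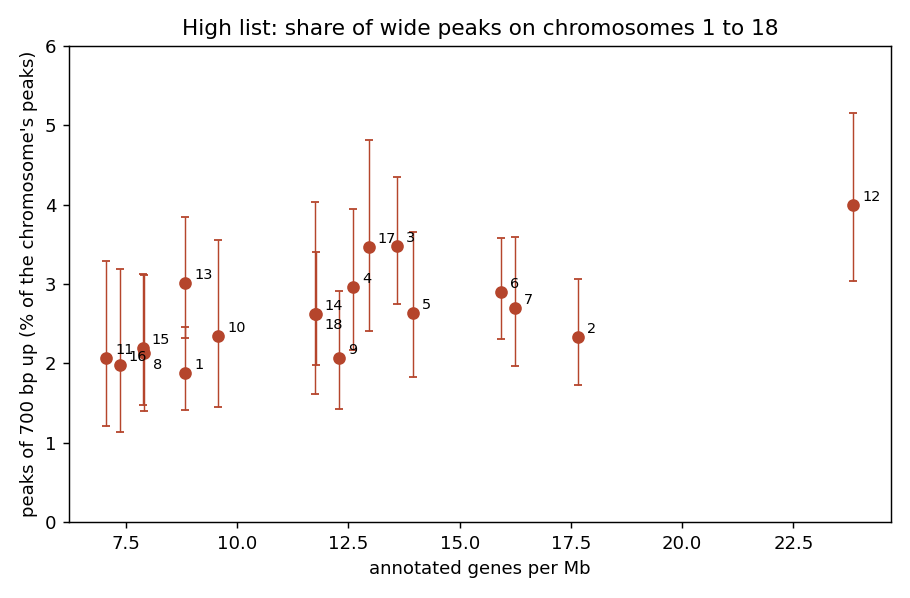
Peaks of 700 bp up as a percentage of each chromosome's high-list peaks (y, exact 95% intervals) against annotated genes per Mb (x), with chromosome numbers beside the points. Chromosome 12, the most gene-dense, is highest at 4.0% and chromosome 1 lowest at 1.88%.

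The last comparison set the wide peaks beside the low list. A low-list peak overlapped 12 of 750 wide peaks (1.60%; 0.829 to 2.78%) and 97 narrow peaks (0.531%), a difference of 1.07 points (0.376 to 2.25). An overlap of 1 bp is more likely for a longer peak by construction, and the classes were chosen by width, so this difference is no measure of shared position. Over the whole high list the overlapping share was 0.73%. When the summit of the high-list peak had to fall in a low-list peak, the shares were 0.800% and 0.356%, a difference of 0.444 points (0.00016 to 1.38). At 800 bp and more the share was 0.885% and the difference 0.353 points (-0.242 to 2.04), and no peak of 1000 bp or more had an overlap.

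The 12 overlapped low-list peaks of 299 to 594 bp, so no position was wide in both lists. Only 0.925% of all low-list peaks were wide. Of the 12, 6 lay at gene ends, among them peaks at PDLIM2, RIN3, VAPB, ADO and MAP3K10. PDLIM2, a regulator of NF-kappaB, had 861 bp and a fold of 4.34 (q 0.00693) in the high list and 299 bp and 2.94 in the low list. At RIN3, a RAB5 exchange factor, the low list had the higher fold, 4.19 over 594 bp, against 3.12 over 768 bp. MAP3K10, a kinase upstream of JNK, had 716 bp and 2.63, with 424 bp and 2.28 in the low list. VAPB, an endoplasmic reticulum tethering protein, had 743 bp (3.12 against 2.89), and ADO, a thiol dioxygenase, 733 bp (2.60 against 2.89). Others lay inside the sialyltransferase gene ST6GAL1 (905 bp, 3.01 against 2.49) and the fatty acid hydroxylase gene CYP4V2 (717 bp, 3.38 against 2.68), 4299 bp from PDLIM1, 9371 bp from RASL11A and 11139 bp from GNG7. The fold was higher in the high list at 8 of the 12, and folds of the lists rest on separate inputs. The 12 were chosen by their width in the high list, and strength and width come from the same pileup. The count of 8 is therefore no measure of a difference between the libraries.

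The other 738 wide peaks had no low-list peak over them. Among these, the FAM207A peak, intergenic and 14935 bp from that gene, had the highest fold of all wide peaks, 4.83 on 16 fragments (q 0.00130). These peaks were called in the high library, so their fragment counts there say nothing on whether the low library differed, and that was not tested.

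The 53 wide peaks of the low list were placed in the same way. Of these, 9 lay at gene ends (17.0%; 8.07 to 29.8%), against 9.31% of narrow low-list peaks, a difference of 7.67 points with an interval from -0.161 to 19.9. Intergenic sequence held 15.1% of wide and 33.8% of narrow low-list peaks, a difference of -18.7 points (-26.1 to -6.70). The 8 named genes with a wide low-list gene-end peak (0.051% of named coding genes) were IPO8, GEN1, SMC6, BTBD10, EDEM2, BZW1, PHAX and TMEM131. None of these 8 had a wide gene-end peak in the high list, which only 1.11% of all named coding genes had. The widest low-list peak, of 1225 bp and fold 4.23, lay 1947 bp from SKIDA1, and a 982 bp peak of fold 3.93 lay inside NR3C1, which encodes the glucocorticoid receptor. No wide low-list peak had q under 0.05.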

How the data were processed

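Immunoprecipitated and input chromatin from liver was sequenced for 1 low and 1 high bile acid library each. Per the labels' protocols, cells were fixed with 1% formaldehyde, sonicated for 8 min, and 10 ng of DNA was amplified for 13 cycles and selected at 250 to 450 bp. The submitters' processing notes name bcl2fastq 2.17, Trimmomatic 0.33, Bowtie 1.1.2 and MACS2 2.1.0, and the builds hg38 and Sscrofa11.1. The pig build was used here. The deposited peak lists hold a score, the authors' fold ratio over background at the summit, and −log10 of p and of q for each peak against that library's own input. Read totals are not given in the sources used here, so sequencing depth is unknown.

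Peaks were placed against the RefSeq gene table of Sscrofa11.1 by their summits. Summit fragments were recovered from fold and p, as whole numbers for 100% of the 28222 high-list peaks (tolerance 0.002 in −log10 p). Shares have exact Clopper-Pearson intervals, and differences of shares Newcombe intervals, at 95%, and no p was computed, since peaks of 1 library are not replicates. PCR reads without molecular identifiers are not independent molecules, so intervals cover counting error only. Width chose the members, and width, fold, fragments, p and q are described only. The scripts were tested on simulated data and ran under Python 3.11.15, numpy 2.4.6, pandas 2.3.3, scipy 1.17.1 and matplotlib 3.10.9.

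The members and gene lists were chosen with earlier results of these data known. The text names the 12 genes with the widest and the 8 with the highest fold at gene ends, up to 3 members per list, the 5 widest peaks of any place, the 3 nearest the threshold on either side, up to 5 wide low-list gene-end peaks and every wide peak that overlaps a low-list peak. Any further gene was picked with its values in view. Genes known only by a LOC number count among all gene ends but not among named genes. Promoter base composition and motifs were not analysed here. Chromosomes X and Y were left out of all shares. Some genes and peaks that the rule names are not reported here.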

Additional observations from a re-analysis of the deposited data

How the results depend on the processing

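The gene-end excess of wide over narrow peaks kept its sign under all 14 alternatives (other positions, windows, widths, gene sets, strengths and comparison classes), from 6.11 points with a 0.5 kb window to 20.9 points among peaks with q under 0.05, and the lower bound stayed above 0 in the 12 with an interval. The alternative that counted any base of the peak (15.7 points) favours longer peaks by construction. The alternatives that reweighted narrow peaks have no interval. Alternatives without peaks of 5 or more expected fragments and without chromosome 12 were chosen after seeing the data. Counts followed their definitions. At 600, 800 and 1000 bp there were 1834, 339 and 76 wide high-list peaks, and the low-list share was 2.55%, 0.384% and 0.0349%. The high-list share was 7.64% among peaks with q under 0.05 and 3.56% at a fold of 3 or more. Named genes with a wide gene-end peak numbered 328, 81 and 22 at 600, 800 and 1000 bp, 87 and 309 with windows of 0.5 and 3 kb, and 453 with a summit anywhere in the gene. Listed genes numbered 11, 3 and 1, then 1 and 10, then 12. The overlap difference with the low list was 0.353 points at 800 bp and -0.531 points at 1000 bp, where 0 of 76 peaks overlapped. The cause was not tested. The difference in neighbours within 5 kb was -0.712 points among peaks with q under 0.05, where far fewer peaks are left to be neighbours. The comparison of promoter base composition was not run. No paired analysis was possible because there was a single immunoprecipitated library per group. Depth limits every statement on a single peak, since a median of 10 fragments stood at a wide summit.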

Other observations

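Wide peaks more often had their summit near an edge. It fell in the outer 20% on either side in 190 of 750 wide peaks (25.3%) and in 16.8% of narrow peaks, a difference of 8.53 points (5.50 to 11.8). The position is scaled by width, and the classes were chosen by width. The difference is therefore described only and is no separate property of wide peaks.

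The expected number of summit fragments was 5 or more at 5 wide peaks (0.667%) and 47 narrow peaks (0.258%). Folds of the 5 wide peaks ran from 1.55 to 2.09. A 992 bp peak on chromosome 10 (24952825 to 24953816), 21674 bp from CYB5R1, had 151 fragments over 96.9 expected and a fold of 1.55. The wide peaks inside SUSD4 had 58 over 32.3 and 46 over 29.1. The wide peaks at the ends of SLC38A1, a glutamine transporter gene, and ITPA had 13 fragments each. Without peaks of this kind the difference in neighbours within 5 kb was 8.95 points.

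Wide peaks lay at the ends of microRNA genes in a few cases. A 946 bp peak of fold 3.13 lay at MIR499, within the myosin gene MYH7B, and the 700 bp peak named above at MIRLET7I. On X and Y, 1 of 61 high-list peaks reached 700 bp.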
